A study of Phanerodontia chrysosporium with 18 samples.

Results

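Oxidases that make hydrogen peroxide were followed in Phanerochaete chrysosporium (organism label Phanerodontia chrysosporium), a white-rot fungus that degrades the lignin of wood, while it colonised spruce. The set was chosen by annotation: gene models whose curated function or InterPro description names a glyoxal, copper radical, alcohol, aryl alcohol, pyranose or glucose oxidase, or a glucose-methanol-choline (GMC) oxidoreductase. One matching model, an abundant alcohol oxidase curated as a methanol oxidase, was left out, which gave 45 of 13602 gene models. By their curated names these were 7 copper radical oxidases, 1 pyranose oxidase, 4 glucose oxidase-like models, 2 alcohol oxidases of family AA3_3 and 31 other GMC family models, 3 of them gene fragments with the C-terminal domain. No model of the set carried the name aryl alcohol oxidase. Models are named here by their protein number.

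RNA came from strain RP-78, a single strain with no genetic change named in the labels, at 40 h and at 96 h after inoculation. At both times the fungus grew on thin tangential sections of Picea glauca sapwood, set in agar with nitrogen and mineral salts and without a nutrient carbon source, so the wood was the carbon supply of both groups. Each time had 3 libraries, each from 20 pooled sections, and each library was read in 3 lanes of 1 sequencing run that held both times; the lanes were averaged and counted once. Values are RPKM, reads per length of gene model and per library size, which puts levels of different models on one scale. How reads shared by similar genes were treated is not given, so levels of similar models and of gene fragments are compared with that limit. RPKM is a share of the reads, and in pooled material a change in the number of hyphae that use a gene and a change in RNA per hypha cannot be told apart.

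Hydrogen peroxide is the oxidant that lignin peroxidases and manganese peroxidases need for each turnover, and white-rot fungi supply it with secreted and intracellular oxidases. Copper radical oxidases pair a copper ion with a tyrosine radical and turn aldehydes or alcohols and oxygen into acids or aldehydes and peroxide. Glyoxal oxidase, the founding enzyme of that family in this fungus, is known from ligninolytic cultures and accepts glyoxal and methylglyoxal, small aldehydes that arise during lignin breakdown. GMC enzymes carry a flavin and act on sugars and alcohols. The family holds both oxidases and dehydrogenases, so a GMC domain alone does not show that a model makes peroxide.

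The libraries had no stated read totals. Steps between low values gave relative depths of 0.717 to 1 at 40 h and 0.48 to 0.709 at 96 h, and low values are the less certain at 96 h for it. The median SD between libraries on the log2(RPKM + 1) scale was 0.0715 at 40 h and 0.1195 at 96 h over all models. Library 2 at 96 h correlated less well with its group (0.984 and 0.992) than libraries 1 and 3 did with each other (0.995). Differences were tested with limma on log2(RPKM + 1) over the 11725 models that reached 1 RPKM in 3 or more libraries. A model was called when its adjusted p (Benjamini-Hochberg over all of these) was below 0.05. Fold changes below are log2 differences on that scale, 96 h minus 40 h, which understate the change of models near 1 RPKM.

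**Figure D1:**
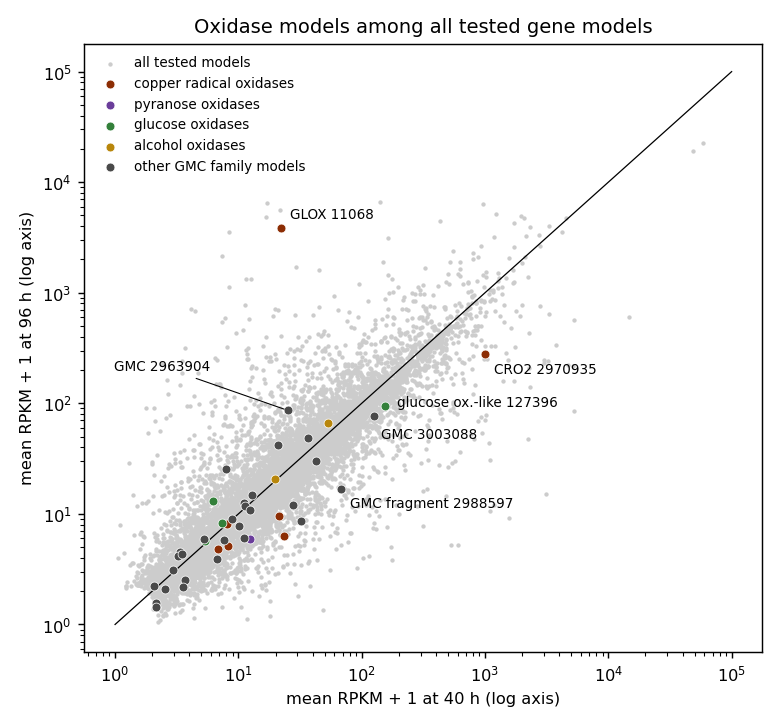
Mean RPKM + 1 at 40 h (x) and 96 h (y), both on log axes, for all tested models in grey and the tested oxidase models in colour by class; the line marks equal levels. GLOX lies far above the line, CRO2 below it, and most other oxidases lie under 100 RPKM near the line.

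Within the set of 45 models the most abundant transcript was copper radical oxidase 2 (CRO2) at 40 h and glyoxal oxidase at 96 h. Glyoxal oxidase GLOX (11068) read 20.2, 21.9 and 20.9 RPKM in the 40 h libraries and 3857, 3320 and 4299 RPKM in the 96 h libraries. The lowest 96 h library stood far above the highest at 40 h, and library 2 was the lowest of the 3 at 96 h. Mean levels (± SD, n = 3) were 21.0 ± 0.854 and 3826 ± 490.2 RPKM. The log2 fold change was 7.44 (SE 0.10, limma adjusted p = 2.08e-08). Among the 45 oxidase models GLOX moved from rank 12 to rank 1, and among all models from rank 5343 to rank 16.

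CRO2 (2970935), a copper radical oxidase known to act on glycolaldehyde, went the other way. It read 933, 1022 and 1037 RPKM at 40 h and 248, 308 and 276 RPKM at 96 h, with no overlap between the times. The level fell 3.59-fold, from a mean of 997 ± 56.2 RPKM to 277 ± 29.9 RPKM. On the log2 scale it fell by 1.85 (SE 0.10, limma adjusted p = 2.94e-06). CRO2 nevertheless had rank 2 within the set at 96 h. Within each library the log2 ratio of GLOX to CRO2 was -5.53, -5.54 and -5.63 at 40 h and 3.96, 3.43 and 3.96 at 96 h. A ratio taken within a library does not depend on how the libraries were scaled.

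CRO3, CRO4 and CRO5 are known to carry repeated WSC domains ahead of the catalytic part and to lie among lignin peroxidase genes in the genome of this fungus. CRO4 (3032412) read 19.7, 21.1 and 20.7 RPKM at 40 h and 7.20, 10.5 and 8.11 RPKM at 96 h. CRO5 (3032414) read 21.1, 22.2 and 24.5 RPKM at 40 h and 4.64, 6.01 and 5.35 RPKM at 96 h. Both were about as abundant as GLOX at 40 h, and both were lower in every 96 h library. CRO4 fell by 1.17 (SE 0.12, limma adjusted p = 9.08e-05) and CRO5 by 1.90 (SE 0.10, limma adjusted p = 2.26e-06) on the log2 scale. CRO5 was slightly above CRO4 in each 40 h library (log2 ratio 0.10, 0.07 and 0.24) and below it in each 96 h library (-0.63, -0.81 and -0.60).

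CRO3 (1717398) showed no call. Its 40 h libraries read 6.99, 7.37 and 7.07 RPKM and its 96 h libraries 6.70, 7.28 and 7.47 RPKM, and the times overlapped. The difference in log2 level was 0.00, with a 95% interval of -0.16 to 0.17 (limma adjusted p = 0.995).

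CRO1 and CRO6 were low at both times and lower at 96 h. CRO1 (2416765) read 6.92, 6.25 and 8.53 RPKM at 40 h and 4.56, 3.61 and 4.34 RPKM at 96 h, a fall by 0.67 on the log2 scale (SE 0.12, limma adjusted p = 0.00184). CRO6 (2894758) read 6.02, 5.96 and 5.41 RPKM at 40 h and 3.75, 3.85 and 3.71 RPKM at 96 h, where it fell by 0.51 (SE 0.07, limma adjusted p = 0.00046). In both the libraries of the times did not overlap. Of the 7 copper radical oxidases, 1 rose, 5 fell and 1 was not called; of all 11725 tested models 26.3% rose and 35.6% fell.

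**Figure D2:**
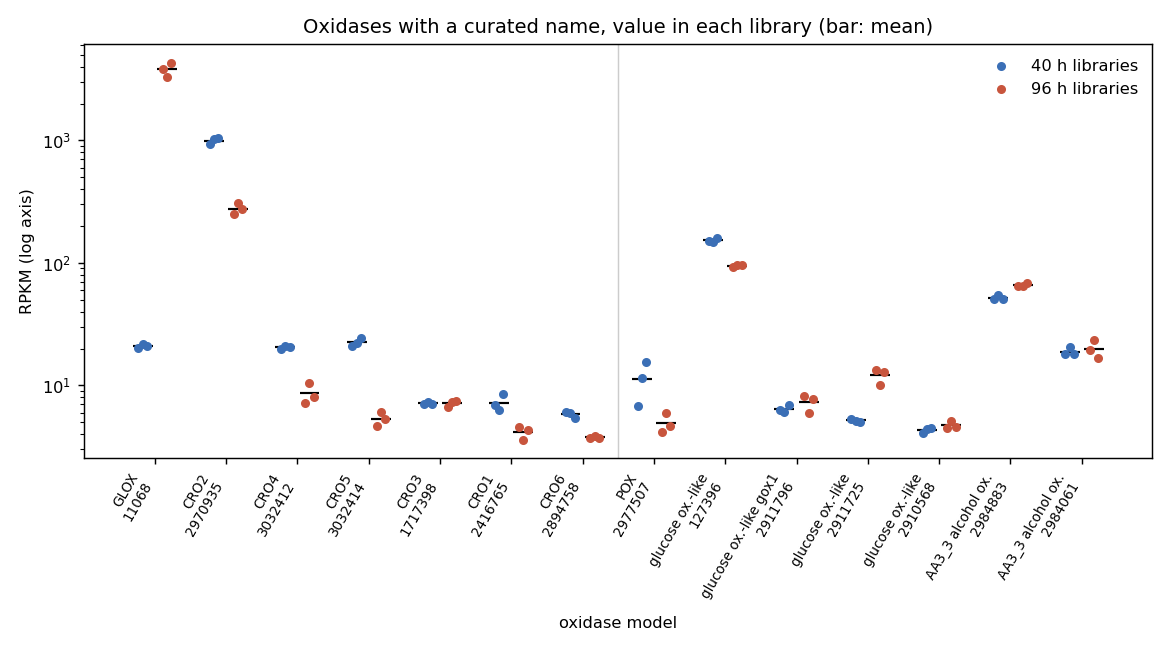
RPKM on a log axis in each of the 3 libraries at 40 h (blue) and at 96 h (red) for the 14 oxidases with a curated name, copper radical oxidases left of the grey line; bars are means. GLOX rises from about 21.0 to 3826 RPKM and CRO2 falls from 997 to 277 RPKM, while the others stay below 200 RPKM at both times.

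All 7 copper radical oxidases had a listed signal peptide, the N-terminal stretch that directs a protein into the secretory pathway. The deposited table lists a signal peptide probability for 10 of the 45 oxidases, between 0.999 and 1, and for 1274 of all 13602 models. The other 3 were the glucose oxidase-like models 127396, 2911725 and 2911796. The remaining 35 oxidases, among them the pyranose oxidase, both alcohol oxidases and all 31 other GMC models, had no listed probability. Of the 10, which include the 7 copper radical oxidases counted above, 2 rose and 6 fell; of the 1184 tested models with a listed probability, 34.7% rose and 37.3% fell. Of the 35, 33 were tested, and of these 7 rose, 15 fell and 11 were not called, beside the shares over all tested models given above. The domain annotation lists a single domain for each copper radical oxidase, so a domain that is not listed may still be present. For GLOX and CRO6 the listed domain was a glyoxal oxidase N-terminal domain, at residues 40 to 282 and 234 to 486. For the other 5 it was a C-terminal domain of unknown function (DUF1929). That domain started at residue 466 in CRO1 and 494 in CRO2 and at residues 647, 909 and 899 in CRO3, CRO4 and CRO5.

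Pyranose oxidase (2977507), which oxidises glucose and xylose at the second carbon and is known as a periplasmic and extracellular peroxide source in this fungus, was lower at 96 h. It read 6.83, 11.6 and 15.7 RPKM at 40 h and 4.17, 5.97 and 4.66 RPKM at 96 h. The 40 h libraries were spread widely, and library 1 stood close to the highest 96 h library. Mean levels were 11.4 ± 4.42 and 4.93 ± 0.933 RPKM, and the log2 difference was -1.003 (SE 0.26, limma adjusted p = 0.00983).

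Of the 4 glucose oxidase-like models 1 rose, 1 fell and 2 were not called, where 26.3% of all tested models rose and 35.6% fell. Model 127396 was the most abundant of them and had rank 2 within the set at 40 h. It read 151, 148 and 159 RPKM at 40 h and 92.0, 95.8 and 95.3 RPKM at 96 h. It fell by 0.69 on the log2 scale (SE 0.06, limma adjusted p = 4.84e-05). Model 2911725 read 5.36, 5.17 and 5.06 RPKM at 40 h and 13.4, 10.1 and 12.7 RPKM at 96 h. It rose by 1.07 (SE 0.10, limma adjusted p = 6.25e-05), and each 96 h library was above every 40 h library.

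The model named gox1 (2911796) read 6.28, 6.07 and 6.89 RPKM at 40 h and 8.14, 5.92 and 7.75 RPKM at 96 h. Library 2 at 96 h lay below all 40 h libraries and the other 96 h libraries above them. The log2 difference was 0.15 with an interval of -0.12 to 0.42 (limma adjusted p = 0.290). With 96 h library 2 left out it was 0.27 and passed (limma adjusted p = 0.0138; range over all refits 0.0138 to 0.614). Model 2910568 read 4.08 to 4.52 RPKM at 40 h and 4.52 to 5.16 RPKM at 96 h, a log2 difference of 0.11 with an interval of -0.08 to 0.29 (limma adjusted p = 0.269). It passed after median-ratio scaling (limma adjusted p = 0.0448; range over all refits 0.0448 to 0.714).

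The AA3_3 alcohol oxidases oxidise primary alcohols such as methanol, which is released when methoxyl groups are removed from lignin. Model 2984883 read 50.4, 54.6 and 50.7 RPKM at 40 h and 64.8, 64.3 and 68.4 RPKM at 96 h. It rose by 0.34 on the log2 scale (SE 0.07, limma adjusted p = 0.00263), and the libraries of the times did not overlap. Model 2984061 read 18.2, 20.6 and 17.9 RPKM at 40 h and 19.6, 23.3 and 16.7 RPKM at 96 h. These values overlapped, and the log2 difference of 0.06 had an interval of -0.22 to 0.34 (limma adjusted p = 0.695).

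Of the 31 other GMC family models 29 were tested. Of these 6 rose and 14 fell, where 26.3% of all tested models rose and 35.6% fell. The 2-fold threshold was passed by 2 rises and 3 falls, where 8.35% and 7.47% of all tested models passed it. Model 2963904 read 22.4, 26.5 and 23.2 RPKM at 40 h and 90.6, 83.5 and 82.3 RPKM at 96 h. It rose 3.56-fold (log2 fold change 1.79, SE 0.08, limma adjusted p = 1.21e-06) and was the most abundant of the 31 at 96 h. Model 2984702 read 7.33, 7.17 and 6.37 RPKM at 40 h and 27.9, 20.9 and 25.0 RPKM at 96 h. It rose 3.53-fold (log2 fold change 1.68, SE 0.11, limma adjusted p = 7.64e-06), and in both models each 96 h library exceeded every 40 h library. Model 2956059 rose by 0.98 on the log2 scale, from a mean of 20.1 ± 1.67 to one of 40.9 ± 5.38 RPKM (SE 0.11, limma adjusted p = 0.000112). The other 3 that rose, 2977252, 3040167 and 3028238, stayed under 4 RPKM in all libraries, with log2 fold changes of 0.43, 0.34 and 0.32.

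The falling models included the most abundant GMC transcripts of the 40 h libraries. Model 3003088 read 118, 117 and 139 RPKM at 40 h and 77.9, 73.5 and 77.3 RPKM at 96 h (log2 fold change -0.70, SE 0.08, limma adjusted p = 0.000205). The fragment 2988597, whose C-terminal GMC domain spans residues 387 to 533, read 55.6, 67.8 and 78.6 RPKM at 40 h and 14.8, 18.9 and 14.1 RPKM at 96 h (log2 fold change -2.01, SE 0.15, limma adjusted p = 1.37e-05). This was the deepest fall in the set on the log2(RPKM + 1) scale; in RPKM it was 4.23-fold, beside 4.24-fold for CRO5. Model 3026582 read 28.8, 29.5 and 34.6 RPKM at 40 h and 7.28, 9.23 and 6.63 RPKM at 96 h (log2 fold change -1.88, SE 0.12, limma adjusted p = 7.1e-06). Model 3031623 read 22.4, 27.9 and 30.4 RPKM at 40 h and 9.15, 13.6 and 10.1 RPKM at 96 h (log2 fold change -1.23, SE 0.16, limma adjusted p = 0.000269). In these 4 models the times did not overlap.

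The other 10 falling GMC models changed less than 2-fold on the log2(RPKM + 1) scale. Their log2 fold changes were -0.87 for 3029198, -0.79 for 2968220, -0.69 for 1995572, -0.61 for 2916462, -0.54 for 1213085, -0.52 for 2898535, -0.46 for the fragment 3078200, -0.43 for 3028958, -0.35 for 6199 and -0.28 for 1994891. The most abundant of them, 2898535, went from 41.9 ± 1.62 to 29.0 ± 3.25 RPKM, and the others had means of 10.2 RPKM or less at 40 h. Models 2916462 and 3078200 passed the filter on low values only through their 40 h libraries, so their fall was in part required by that filter. Model 2916462 is also the one whose listed domain is an aldehyde dehydrogenase domain, at residues 1 to 77, in place of a GMC domain.

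Of the 31, 20 were called and 9 were tested and not called, where 62% of all tested models were called. Those not called were 3031630, 3024987, 3026586, 2930430, 3039623, 2905582, 3029206, 3007096 and 2988582, with log2 differences from 0.40 down to -0.20. The most abundant, 3031630, read 29.1, 35.8 and 42.8 RPKM at 40 h and 41.6, 58.1 and 43.0 RPKM at 96 h (limma adjusted p = 0.0702). A further 2 fell below the filter and were not tested: 3032709 read 0.224, 0.228 and 0.305 RPKM at 40 h and 0.136, 0.0713 and 0.156 RPKM at 96 h, and the fragment 2911509 stayed at or under 0.130 RPKM, at the table's floor of 0.002 in 2 libraries.

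**Figure D3:**
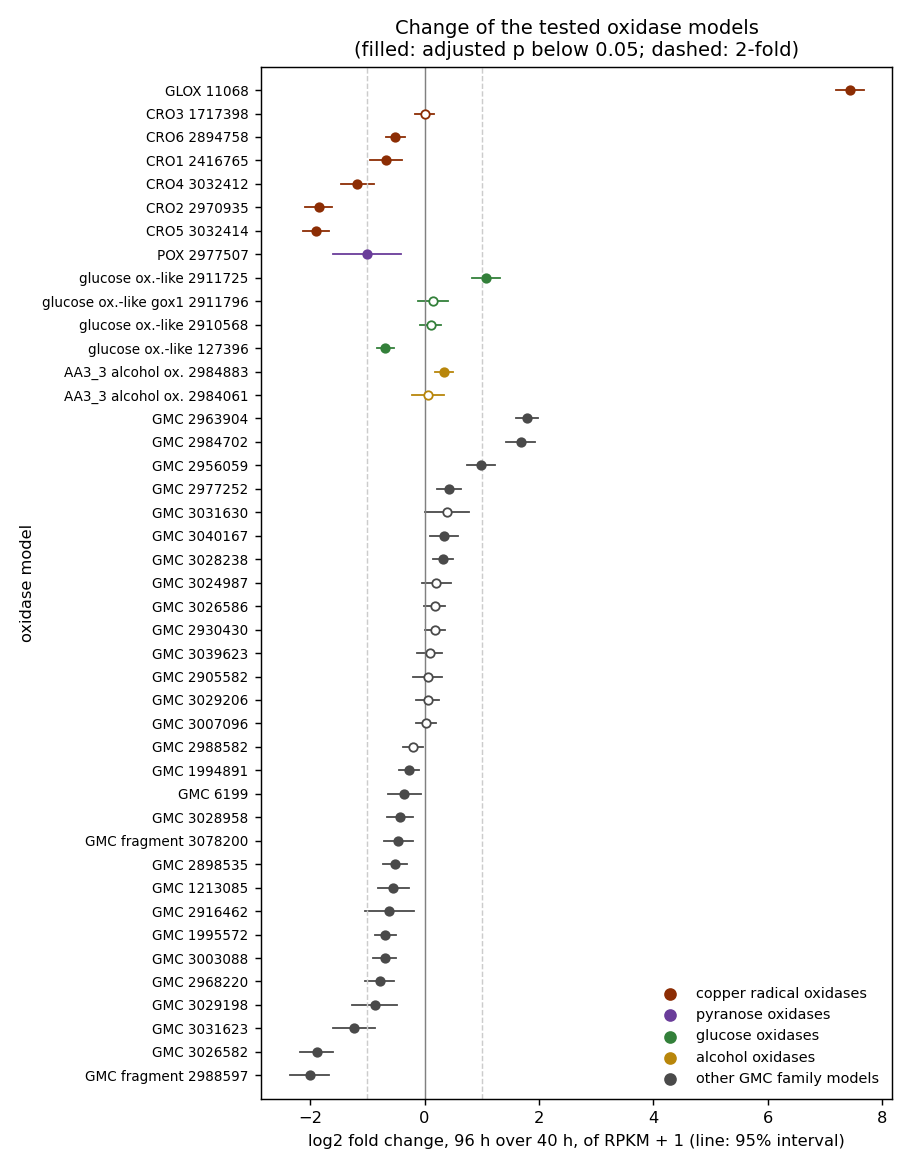
Log2 fold change of RPKM + 1, 96 h over 40 h, with its 95% interval for the 43 tested oxidase models, coloured by class; filled points have an adjusted p below 0.05, and dashed lines mark 2-fold. GLOX at 7.44 stands apart; the other changes run from -2.01 to 1.79.

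Of the 43 oxidases tested, 30 were called, where 62% of all tested models were called. By direction 9 rose (20.9%, against 26.3% of all tested models) and 21 fell (48.8%, against 35.6%). The falls counted in this paragraph include 2916462 and 3078200, which passed the filter only through their 40 h libraries. Scaling by median ratios gave 14 rises (32.6%, against 31.6% of all tested models) and 20 falls (46.5%, against 32.0%), so the share of rises lay below the background without that scaling and near it with it. The 2-fold threshold was passed by 4 rises and 7 falls, shares of 9.30% and 16.3%, where 8.35% and 7.47% of all models passed it. The libraries of the times did not overlap for 33 of the 43, against 69.3% of all tested models. The median log2 fold change was -0.20 in the set and -0.08 over all tested models. In the authors' deposited table, p-values were below 0.05 for 38 of the 43, where 85.1% of all tested models did. Without the copper radical oxidases the median of the set was 0.04, with 8 rises and 16 falls among 36 tested models.

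As a share of all RPKM in a library, the 45 oxidases made up 0.203%, 0.222% and 0.230% at 40 h and 0.605%, 0.551% and 0.672% at 96 h. The increase lay in GLOX: without it the share went from 0.216% ± 0.0141 to 0.121% ± 0.00694 (SD, n = 3). Without GLOX and CRO2 it was 0.0960% ± 0.00704 at 40 h and 0.0858% ± 0.00325 at 96 h. The 38 GMC and pyranose oxidase models together held 0.0884% ± 0.00669 and 0.0821% ± 0.00299, a difference close to the spread between the 40 h libraries.

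Within the oxidase total the make-up changed from CRO2 to GLOX. CRO2 held 54.9% ± 0.701 of it at 40 h and 5.87% ± 1.08 at 96 h. GLOX held 1.16% ± 0.0563 and then 79.9% ± 2.90. The glucose oxidase-like model 127396 went from 8.41% to 1.99% and the GMC model 3003088 from 6.86% to 1.60%. These shares are descriptions and were not tested.

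**Figure D4:**
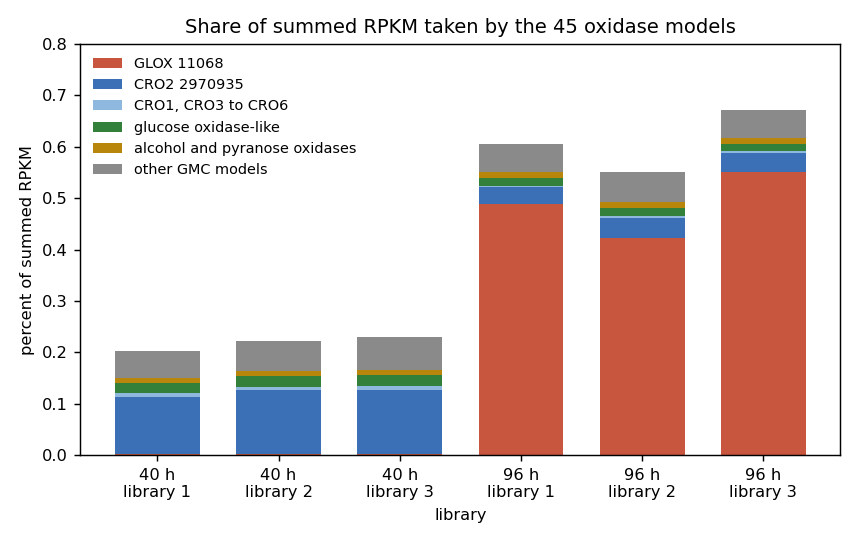
Percent of the summed RPKM of each library taken by the 45 oxidase models, stacked by class, for the 3 libraries at 40 h and the 3 at 96 h. CRO2 (blue) makes up the largest block at 40 h and GLOX (red) at 96 h, and the remaining blocks together take 0.0960% at 40 h and 0.0858% at 96 h.

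The ordering of the libraries within a time recurred across part of the set. Library 2 at 96 h was the one nearest to the 40 h mean in 21 of the 30 called oxidases (70%), where it was nearest in 55.5% of the 7267 called models. At 40 h, library 1 was the lowest and library 3 the highest in 19 of the 43 tested oxidases (44.2%), against 22.3% of all tested models. In 16 of these, library 2 was also the highest at 96 h (37.2% of the 43, against 13.7% of all tested models). They include CRO2, CRO5, the pyranose oxidase, the fragment 2988597 and the GMC models 3026582 and 3031623. Oxidases varied slightly more between libraries than all models did, with median SDs on the log2 scale of 0.0826 at 40 h and 0.155 at 96 h. This comparison was not matched for level. The median level of the oxidases was 7.87 RPKM at 40 h and 7.15 RPKM at 96 h, against 13.0 and 12.6 RPKM over all models. These orderings were seen after the values were known and carry no test.

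**Figure D5:**
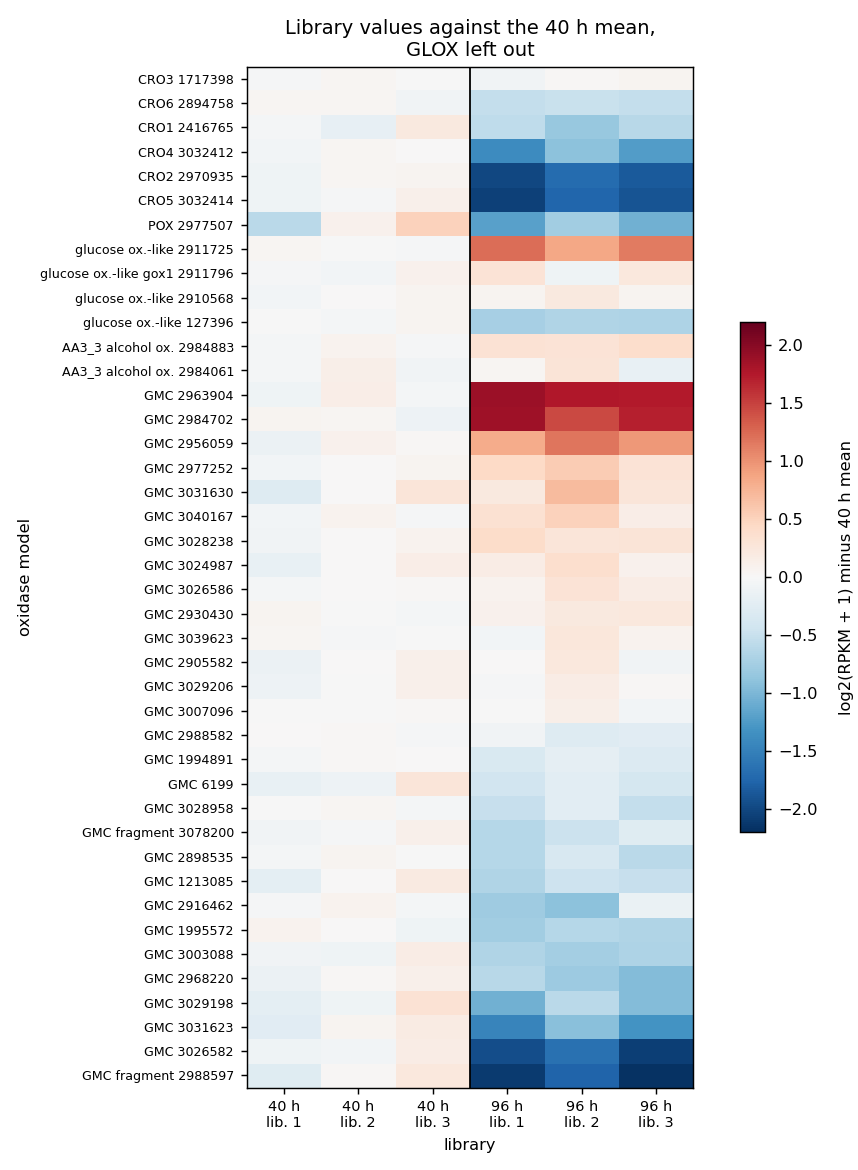
Log2(RPKM + 1) in each library minus the mean of the 40 h libraries, for the 42 tested oxidase models other than GLOX; red is above and blue below that mean. The 96 h libraries carry the changes, with library 2 often paler than libraries 1 and 3 among the falling models.

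Of the users of peroxide, 14 of 15 tested models rose, where 26.3% of all tested models did. Of 10 lignin peroxidases, which oxidise nonphenolic lignin units, 9 rose and lipH (2918661) was not called (log2 difference -0.21, limma adjusted p = 0.0869; median of the 10 models 4.67), and of 5 manganese peroxidases, which make a diffusible manganese oxidant, all 5 rose (median 6.87). LiPD (1386770) read 7.16, 8.01 and 6.89 RPKM at 40 h and 5180, 2100 and 3316 RPKM at 96 h (log2 fold change 8.63, limma adjusted p = 2.34e-07), and LiPE (1716042) had a log2 fold change of 8.54. MnP5 (2971944) and mnp1 (8191) had log2 fold changes of 8.09 and 7.95. Over the 15 peroxidases, library 2 was the lowest of the 96 h libraries in 5, among them these 4, and the highest in 8. The 96 h mean of GLOX, 3826 RPKM, lay between those of LiPD (3532 RPKM) and MnP5 (4801 RPKM).

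Enzymes that remove peroxide moved in both directions. The counts in this paragraph stand beside shares of 26.3% higher and 35.6% lower over all tested models. Of 5 catalases, which split peroxide into water and oxygen, 2 rose and 2 fell. The abundant catalase 3006241 read 1233, 1395 and 1048 RPKM at 40 h and 5302, 5014 and 5006 RPKM at 96 h. It rose by 2.07 on the log2 scale (SE 0.13, limma adjusted p = 6.5e-06), and at 96 h its mean of 5107 ± 168 RPKM was above that of GLOX. The minor catalase 3005721 fell from 18.9 ± 3.25 to 3.76 ± 0.795 RPKM (log2 fold change -2.06, limma adjusted p = 1.74e-05). Of 28 models matched as glutathione, cytochrome c or thiol peroxidases 15 rose and 8 fell, but the pattern also took in proteins that are no peroxidases. These included thioredoxin-fold proteins such as the protein disulfide isomerase 2900710 (log2 fold change 3.68). They also included models with a ferredoxin domain such as 3012697 (log2 fold change -0.91). Among the 9 with a peroxiredoxin, redoxin or glutathione peroxidase domain, 5 rose and 3 fell. Among the 19 with another domain, 10 rose and 5 fell. Peroxiredoxin-6 (2899568) rose from 272 ± 33.1 to 838 ± 136 RPKM (log2 fold change 1.62, limma adjusted p = 2.85e-05). The thioredoxin peroxidase 3007320 fell from 227 ± 4.60 to 41.8 ± 3.86 RPKM (log2 fold change -2.42, SE 0.08, limma adjusted p = 2.38e-07).

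Other possible sources of peroxide moved in both directions, where 26.3% of all tested models rose and 35.6% fell. Of 5 superoxide dismutases, which convert superoxide to peroxide, 1 rose and 2 fell. Model 2982872 went from 116 ± 1.73 to 207 ± 33.6 RPKM (log2 fold change 0.82, limma adjusted p = 0.000453) and model 2982879 had a log2 fold change of -0.41. Of 10 acyl-CoA oxidase or dehydrogenase models, of which the oxidases make peroxide during fatty acid breakdown, 1 rose and 4 fell. Model 136686 went from 410 ± 21.3 to 195 ± 37.9 RPKM (log2 fold change -1.08, limma adjusted p = 0.000301) and model 2990590 had a log2 fold change of -1.07. Of 6 tested models with an amine oxidase domain 3 rose and 2 fell: 3029133 had a log2 fold change of 1.99 and 2934788 of -1.28. The other fall, of 3027494, was -0.46 (limma adjusted p = 0.0471), and its libraries overlapped between the times.

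Of 16 lytic polysaccharide monooxygenase and cellobiose dehydrogenase models, copper and flavin-heme enzymes that act on cellulose, 6 rose and 2 fell. Of all tested models 26.3% rose and 35.6% fell. The monooxygenase 2934397 read 25.1, 32.6 and 24.5 RPKM at 40 h and 354, 228 and 312 RPKM at 96 h (log2 fold change 3.38, limma adjusted p = 2.04e-06), and 3026777 had a log2 fold change of -1.56. Aryl alcohol dehydrogenases reduce aromatic aldehydes and are known from related fungi as partners of aryl alcohol oxidase in a cycle that makes peroxide. All 5 aryl alcohol dehydrogenases were called, 4 higher and 1 lower, where 62% of all tested models were called. Model 11055 had a log2 fold change of 3.45, and 3028048 rose from 27.2 ± 1.45 to 143 ± 9.50 RPKM (log2 fold change 2.35, limma adjusted p = 2.29e-07). The rises of 3025513 and 3006107 were smaller, with log2 fold changes of 0.42 and 0.27. Model 336 fell from 210 ± 54.3 to 41.5 ± 12.7 RPKM (log2 fold change -2.32, limma adjusted p = 8.1e-05).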

How the data were processed

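The authors deposited RPKM for each library and lane. Per the submitters' processing notes CASAVA 1.8.2 was used. Not given in the sources used here: aligner, counter, genome build, annotation, and the treatment of reads shared by similar genes. Per the file headers the deposited table has, beside these, average RPKM for 40 h and 96 h (geometric means of the lanes, as recomputed for 40 h), their ratio, a p-value and its T score, and a signal peptide probability, a fraction from 0 to 1. A library is a barcode number within a time; its 3 lanes were averaged linearly. The labels call the pools separate samples and name no separate cultures, so p-values cover only the spread between libraries, which may be technical. Log2(RPKM + 1) was tested with limma (version 3.58.1; R 4.3.3) by moderated statistics with a variance trend, without block or further scaling; the procedure was also tested on simulated data. The oxidases, pathway lists and comparisons were chosen with earlier results of these data known. Text gives every oxidase. Given in full are those with a curated oxidase name, those called with at least a 2-fold change, and those averaging at least 50 RPKM. Of each pathway list the 2 largest called changes are given, and for some lists further models. Alternatives were pseudocounts, filters, scalings, single lanes, a replicate block, the variance trend, left-out libraries, the authors' p-values and a 2-fold threshold.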

Additional observations from a re-analysis of the deposited data

How the results depend on the processing

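Under the refits run, no called oxidase changed direction. The 9 rises became 14 with median-ratio scaling (all models 3088 to 3704), 16 with the p-value and ratio of the authors' deposited table (all models 4247, or 36.2%, beside 37.2% of the oxidases), and 4 with a 2-fold threshold. The 21 falls became 7, all called models 1855 (979 higher, 876 lower) and the pathway lists 27 higher and 8 lower with that threshold. The pathway lists' 21 falls became 36 with the authors' deposited table. Leaving out 1 library at a time gave 8 to 11 rises, 17 to 21 falls and 6094 to 7950 called models. The calls of 6199, 3040167, 1994891 and 2916462 were lost in at least 1 such refit, and 3078200 and 2916462 missed the filter, and so were not tested, in the 3 refits without a 40 h library. Values near 0 changed sign: CRO3 was -0.038 with lane 2 alone and ran from -0.028 to 0.041 with 1 library left out, and the alcohol oxidase 2984061 ran from -0.059 to 0.17. A replicate block by barcode gave 10 rises and 21 falls, and 7121 called models. It is not known whether the numbers pair the samples. Deviations of libraries with the same barcode number correlated at 0.136, 0.133 and -0.102. Those with the same number in the column names correlated at 0.218, -0.097 and 0.076. So few values cannot decide whether the samples are paired. A block by the number in the column names, chosen after seeing the data, also gave 10 and 21. The cause of these changes was not tested. Depth limits models under 10 RPKM most, above all at 96 h.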

Other observations

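Among the tested other GMC models, 4 pairs have protein numbers within 20 of each other, and in each pair the models changed unequally. This way of pairing was chosen after the values were seen, and the table gives no genome position. Each ratio has the model with the lower log2 fold change as its numerator, so its downward direction was set by that choice. The log2 ratio of 3026582 to 3026586 was 1.62 ± 0.119 at 40 h and -0.59 ± 0.166 at 96 h (SD, n = 3), since the first fell while the second had a log2 difference of 0.18. The ratio of 3031623 to 3031630 went from -0.41 ± 0.0721 to -2.12 ± 0.0510, and that of 3029198 to 3029206 from -0.05 ± 0.193 to -1.10 ± 0.189. The fragment 2988597 stood 2.55 ± 0.270 above 2988582 at 40 h and 0.70 ± 0.317 above it at 96 h, on the log2 scale. In all 4 pairs the ratios at the times did not overlap, and no share over other pairs of models was computed to set beside this.

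The authors' deposited table gives p-values below 0.05 for 38 of the 43 tested oxidases, 16 higher and 22 lower at 96 h, and for 85.1% of all tested models. All 30 calls made here are among the 38, in the same direction, and 8 pass in the authors' deposited table alone. The T score of the authors' deposited table differed from a t statistic over lane means by a median of 0.640 and from one over library means by a median of 6.15, over 12964 models.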
